A study of Homo sapiens with 12 samples.

Results

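HCT116 cells labelled as overexpressing the standard CD44 isoform (CD44s-OE) were compared with HCT116 cells labelled as overexpressing the CD44v6 isoform (CD44v6-OE). These names are used as labels, since total CD44 RNA did not pass as higher than in parental cells in either group. The comparison rests on 4 of the 12 RNA-seq libraries of the series, 2 per group, chosen as the libraries whose labels name these cells. It covers the 17335 genes, of 62426 in the count table, that passed a filter on low counts. HCT116 is an established human colon cancer cell line. CD44s-OE cells received a CD44s plasmid and CD44v6-OE cells a CD44v6 plasmid by stable transfection, and both were kept under Geneticin selection. The column headers call the samples pools, and nothing in the labels says that the 2 libraries of a group came from separate transfections, so p-values measure only the spread between these libraries. HCT116 parental cells, with 2 libraries, carried no plasmid and serve as a background here. SW480, a further established colon cancer line, had the same groups, with 2 libraries each. The methods name different plasmid backbones for the isoforms, so isoform and backbone cannot be told apart, and in any difference from parental cells neither can transfection and selection.

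CD44 is a membrane receptor for hyaluronan whose transcript is spliced into a standard form, without variable exons, and into variant forms such as CD44v6. In carcinoma cells, loss of the epithelial splicing factors ESRP1 and ESRP2 favours the standard form and accompanies epithelial to mesenchymal transition (EMT). In EMT, transcription factors such as ZEB1 bind E-box sequences in the promoters of adhesion and polarity genes and repress them, while vimentin, collagens and other matrix genes are expressed. The study asked which genes lie downstream of each CD44 isoform.

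CD44 (ENSG00000026508, chromosome 11 of hg19 from 35160429 to 35253949), the gene on both plasmids, was at 552 and 533 CPM in CD44s-OE, with 509 and 524 CPM in CD44v6-OE and 538 and 526 CPM in parental cells, where CPM is counts scaled to a common library size, here by the total count. Both CD44v6-OE libraries lay below both parental libraries, and the CD44s-OE libraries lay on either side of the higher parental one. The log2 fold change against parental cells was 0.01 in CD44s-OE and -0.10 in CD44v6-OE cells (SE 0.12 each, adjusted p = 0.959 and 0.811 from edgeR). Between OE groups it was 0.11 (SE 0.12, adjusted p = 0.817), and both CD44s-OE libraries lay above both CD44v6-OE libraries. The total RNA count of this gene thus does not bear out overexpression in HCT116 cells. The count sums all isoforms, so the level of each isoform was not measured here. The study examined its OE cells of both lines by RT-qPCR for CD44s and CD44v6, normalized to constitutive CD44 exons, and by western blot for CD44. A gene count does not stand in for those isoform and protein measures.

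Total counts were 51075563 to 51981303 over the 4 libraries compared, and 52644253 and 52811889 in parental cells. The replicates of CD44s-OE lay farther apart than those of CD44v6-OE. Over the 12141 genes with an average log2 CPM of at least 1, with CPM scaled by TMM from here on unless stated, the SD of the log2 difference between replicates was 0.49 in CD44s-OE, 0.17 in CD44v6-OE and 0.32 in parental cells. A difference over 2-fold between replicates was found for 424 genes in CD44s-OE, 5 in CD44v6-OE and 134 in parental cells. The spread behind each test below is shared by all 6 HCT116 libraries.

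With edgeR's quasi-likelihood test, 22 genes passed as higher with CD44s than with CD44v6 (0.127% of those tested) and 28 as lower (0.162%). For such a call the p adjusted by Benjamini and Hochberg had to be under 0.1, and the log2 fold change over 1.5 in size. The lists described here held a minority of these calls. Of the 22 higher genes, 3 were members of the mesenchymal and matrix list and 4 of the Wnt target list, and of the 28 lower genes, 5 were members of the epithelial sorting and polarity list and 1 of the junction list. At any fold, 73 genes were higher (0.421%) and 68 lower (0.392%) at an adjusted p under 0.1. At an unadjusted p under 0.05, 5.66% of tested genes were higher and 4.86% lower, and DESeq2 passed 287 genes as higher and 206 as lower at an adjusted p under 0.1. Member counts by these measures stand against these shares. Over all tested genes, the log2 fold changes had a median of 0.01. In all 50 called genes both CD44s-OE libraries lay on 1 side of both CD44v6-OE libraries, as 20.4% of tested genes did on the higher side and 20.9% on the lower side. The plot of fold change by level shows the called genes spread over low and high levels.

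**Figure D1:**
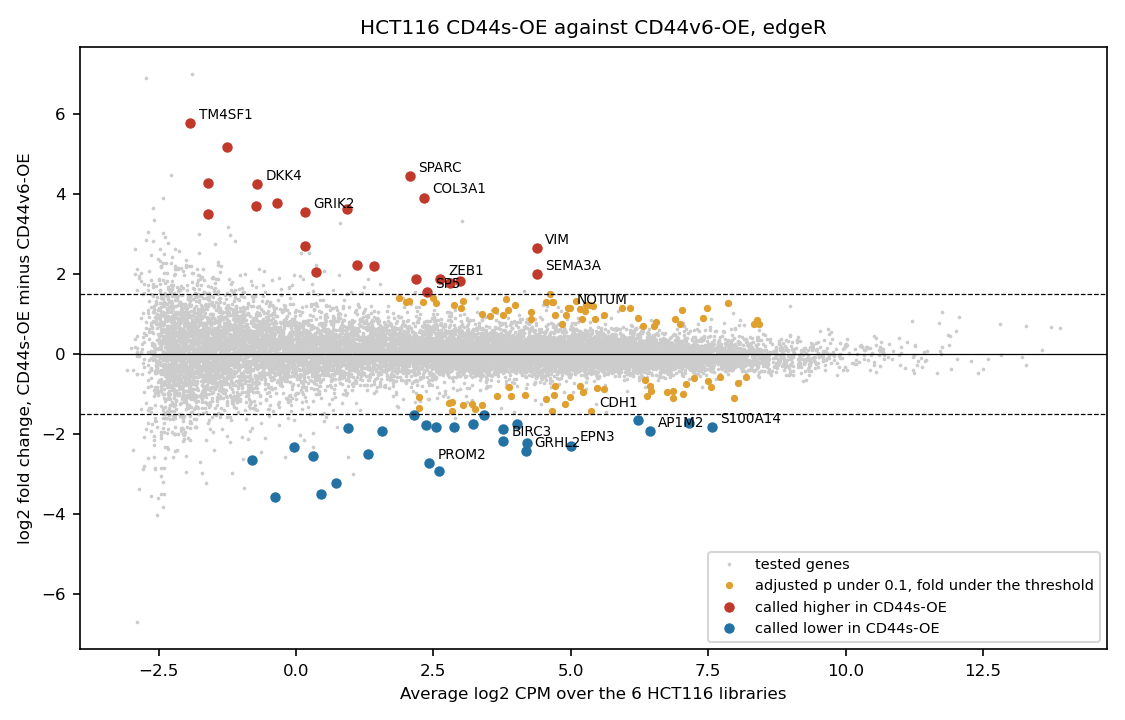
Log2 fold change, CD44s-OE minus CD44v6-OE, of each tested HCT116 gene by its average log2 CPM over 6 libraries, with dashed lines at the fold threshold of 1.5. Red points mark 22 genes called higher, blue points the genes called lower apart from CD44-AS1, which had no count in CD44s-OE and is not drawn, and amber points genes at an adjusted p under 0.1 below the fold threshold. SPARC, COL3A1, VIM and SEMA3A are the called higher genes that stand out at middle levels, while AP1M2 and S100A14 are among the best expressed of the called lower genes.

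The calls depended on which libraries entered the fit. Leaving 1 out also changes the spread shared by all HCT116 libraries, so a lost call need not mean a changed fold. With any library left out, the log2 fold change ranged from -2.60 to -2.43 for LINC01405 and from 2.23 to 4.32 for PRSS33. A shared spread can also understate that of CD44s-OE, whose replicates lay farthest apart (SD 0.49, against 0.17 in CD44v6-OE). Leaving out CD44v6-OE 1 or CD44v6-OE 2 left 0 of the 22 higher calls, and 9 or 7 of the 28 lower calls. All 50 genes kept their direction with an unadjusted p under 0.05 from edgeR in each of these fits. By DESeq2 on all libraries, 19 of the 22 and all 28 were called. PROM2, EPN3, ADGRF1, AP1M2 and UCA1 were among the genes called lower with each of the 6 libraries left out in turn. Leaving out CD44s-OE 1 gave 326 calls, which held 21 of the 22 higher and 27 of the 28 lower genes, and leaving out CD44s-OE 2 gave 155 calls, which held 18 and 21 of them. Without parental 1 or parental 2 there were 30 calls each, 13 higher and 17 lower. Of 19 genes given here that passed the adjusted p but not the fold threshold, 0 passed without CD44v6-OE 1 or CD44v6-OE 2, 6 without either parental library and 19 without either CD44s-OE library.

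Several genes of mesenchymal cells and their matrix were higher in CD44s-OE. Of 25 tested members of the mesenchymal and matrix list, 4 passed the test as higher and 0 as lower (0 also at an unadjusted p under 0.05 and by DESeq2), and 24 had a positive log2 fold change. Their median log2 fold change was 0.61. COL3A1 (ENSG00000168542, chromosome 2 of hg19 from 189839099 to 189877472), which encodes the chain of type III collagen, was at 7.67 and 20.1 CPM in CD44s-OE, with 0.839 and 1.01 CPM in CD44v6-OE and 0.114 and 0.117 CPM in parental cells. In bulk RNA, a rise in every cell and a larger share of cells with the transcript cannot be told apart. Both CD44s-OE libraries stood above all others, CD44s-OE 2 the highest, with a log2 fold change against CD44v6-OE of 3.90 (SE 0.44, adjusted p = 0.0141 from edgeR).

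SPARC, a matricellular glycoprotein, was at 5.9 and 16.7 CPM in CD44s-OE, with 0.534 and 0.505 CPM in CD44v6-OE and 0.266 and 1.07 CPM in parental cells. VIM, which encodes the intermediate filament vimentin, was at 32.1 and 66 CPM in CD44s-OE, with 8.47 and 7.15 CPM in CD44v6-OE and 4.6 and 6.39 CPM in parental cells. For both genes CD44s-OE 2 was the highest library and the CD44v6-OE libraries lay nearer to the parental ones than to CD44s-OE. The log2 fold change was 4.44 for SPARC (SE 0.68) and 2.65 for VIM (SE 0.32), with adjusted p of 0.0446 and 0.0155. On the opposite strand and overlapping the start of VIM, the antisense gene VIM-AS1 was at 1.83 and 3.7 CPM in CD44s-OE, against 0.381 and 0.468 CPM in CD44v6-OE cells (log2 fold change 2.7, SE 0.49, adjusted p = 0.059). The counts were made by strand.

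FN1, which encodes fibronectin, rose by less than the fold threshold, with 31.2 and 29.5 CPM in CD44s-OE, against 16.6 and 16.5 CPM in CD44v6-OE cells (log2 fold change 0.88, adjusted p = 0.0876). COL6A1 and COL6A2, chains of type VI collagen and the best expressed members that did not pass, had log2 fold changes of 0.65 and 0.54. Among genes outside the list and chosen after their values were seen, LAMB1, a laminin chain, was at 70.9 and 79.1 CPM in CD44s-OE, against 37.4 and 38.7 CPM in CD44v6-OE cells (log2 fold change 0.98, adjusted p = 0.0353). TIMP1, an inhibitor of metalloproteinases, was at 571 and 428 CPM in CD44s-OE, against 282 and 274 CPM in CD44v6-OE cells (log2 fold change 0.84, adjusted p = 0.053). Matrix genes that passed the test stood at low and at high levels. FN1 and TIMP1 lost their adjusted p under 0.1 without CD44v6-OE 1, CD44v6-OE 2 or either parental library, and LAMB1 without CD44v6-OE 1 or CD44v6-OE 2. Since COL3A1 is also a fibroblast marker, the markers of that cell type were looked up. Of 10 fibroblast markers, COL1A1, COL3A1 and PDGFRB passed the filter, while COL1A2, DCN, LUM, PDGFRA, FAP, THY1 and POSTN did not. Scaled to the total count, their summed level was 32.3 and 58.3 CPM in CD44s-OE, with 35.6 and 32.8 CPM in CD44v6-OE and 19.2 and 13.4 CPM in parental cells, COL3A1 included. COL1A1 was at 25.5 and 36.5 CPM in CD44s-OE, against 33.7 and 30.3 CPM in CD44v6-OE cells, and these overlapped. PDGFRB was at most 0.374 CPM in either.

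ZEB1 was the single member of 8 tested EMT transcription factors to pass, and their median log2 fold change was -0.13. It was at 16.3 and 10.1 CPM in CD44s-OE, with 3.64 and 3.61 CPM in CD44v6-OE and 0.931 and 2.13 CPM in parental cells (log2 fold change 1.86, SE 0.36, adjusted p = 0.0805). Unlike VIM and SPARC, it was higher in CD44s-OE 1 than in CD44s-OE 2. SNAI1, a further repressor of E-cadherin, was at 34.3 and 20.0 CPM in CD44s-OE, against 32.3 and 29.6 CPM in CD44v6-OE cells, and TCF3 at 355 and 339.6 CPM in CD44s-OE, against 327 and 308 CPM in CD44v6-OE cells. Neither passed. SEMA3A (chromosome 7 from 83585093 to 84122040), a secreted guidance cue, was at 28 and 65 CPM in CD44s-OE, with 11.3 and 12 CPM in CD44v6-OE and 4.26 and 4.01 CPM in parental cells (log2 fold change 2.00, SE 0.33, adjusted p = 0.0425). The calls of COL3A1, SPARC, VIM, VIM-AS1, ZEB1 and SEMA3A were all lost without CD44v6-OE 1 or CD44v6-OE 2. That of ZEB1 was also lost without CD44s-OE 1, that of SEMA3A without CD44s-OE 2, and those of VIM-AS1 and SEMA3A without either parental library.

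Several Wnt/beta-catenin target genes were also higher in CD44s-OE. Of 18 tested members, 5 passed as higher and 0 as lower (1 lower at an unadjusted p under 0.05, 0 by DESeq2), and the median log2 fold change was 0.38. SP5 (ENSG00000204335, chromosome 2 from 171571847 to 171574588), a zinc finger transcription factor induced by Wnt signals, was at 8.65 and 9.14 CPM in CD44s-OE, with 3.34 and 2.77 CPM in CD44v6-OE and 3.33 and 3.71 CPM in parental cells. The replicates of each group were close and the CD44v6-OE and parental libraries overlapped, at a log2 fold change of 1.54 between OE groups (SE 0.23, adjusted p = 0.0288). TNFRSF19, a receptor also known as TROY, was at 3.72 and 5.22 CPM in CD44s-OE, with 0.839 and 1.08 CPM in CD44v6-OE and 0.684 and 1.17 CPM in parental cells (log2 fold change 2.21, SE 0.36, adjusted p = 0.0411).

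NOTUM, DKK4 and APCDD1, the other members that passed, encode secreted or membrane inhibitors of Wnt signaling. NOTUM was at 48.2 and 46.4 CPM in CD44s-OE, with 24.2 and 18.7 CPM in CD44v6-OE and 25.7 and 22.8 CPM in parental cells (log2 fold change 1.14, SE 0.17, adjusted p = 0.0303). DKK4 had 48 and 122 counts in CD44s-OE and 5 and 4 counts in CD44v6-OE cells, with no count in parental cells (adjusted p = 0.0448). APCDD1 had 12 and 30 counts in CD44s-OE and 1 count in each CD44v6-OE library, but 22 and 24 counts in parental cells (adjusted p = 0.0957). Among called genes higher in CD44s-OE, it was the 1 gene whose parental level lay nearer to CD44s-OE, and CD44v6-OE cells were the low group.

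DRAXIN, which encodes a secreted guidance protein that inhibits Wnt signaling, is not in the list and was at 10.2 and 14.6 CPM in CD44s-OE, with 4.52 and 2.73 CPM in CD44v6-OE and 4.68 and 4.79 CPM in parental cells (log2 fold change 1.77, SE 0.29, adjusted p = 0.0405). MYC and CCND1, the best expressed list members, did not pass: MYC was at 527 and 323 CPM in CD44s-OE, against 714 and 638 CPM in CD44v6-OE cells, and CCND1 at 361 and 473 CPM in CD44s-OE, against 394 and 393 CPM in CD44v6-OE cells. The Wnt members that passed stood at low or middle levels. Calls of the 4 called members and DRAXIN, and the adjusted p of NOTUM, were lost without CD44v6-OE 1 or CD44v6-OE 2. Those of SP5 and DRAXIN were also lost without CD44s-OE 2, and those of APCDD1 and DRAXIN without either parental library.

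A few feedback genes of the ERK pathway were higher. Of 25 tested members, 3 passed as higher and 0 as lower (1 at an unadjusted p under 0.05 and 0 by DESeq2), with a list median of 0.24. DUSP6, a phosphatase of ERK, was at 249.9 and 313 CPM in CD44s-OE, with 124 and 129 CPM in CD44v6-OE and 103 and 150 CPM in parental cells (log2 fold change 1.15, SE 0.19, adjusted p = 0.0405). ETV1, an ETS transcription factor, was at 45.4 and 65.1 CPM in CD44s-OE, against 25.3 and 24.5 CPM in CD44v6-OE cells, and DUSP4 at 580.1 and 476 CPM in CD44s-OE, against 327 and 307 CPM in CD44v6-OE cells (adjusted p = 0.0405 and 0.0915). In these 3 genes the OE groups did not overlap. The NF-kB and stress gene IER3, at 885 and 689 CPM in CD44s-OE, against 756 and 706 CPM in CD44v6-OE cells, overlapped and did not pass.

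Genes of the TGF-beta and BMP response held 2 members that passed as higher of 24 tested and 0 that passed as lower (1 at an unadjusted p under 0.05 and 0 by DESeq2). BMP4, a BMP ligand, was at 244 and 444 CPM in CD44s-OE, with 144 and 139 CPM in CD44v6-OE and 179 and 241 CPM in parental cells, so its parental libraries lay between the OE groups (log2 fold change 1.28, adjusted p = 0.0882). ATOH8, a basic helix-loop-helix factor, was at 5.21 and 4.9 CPM in CD44s-OE, with 1.16 and 1.05 CPM in CD44v6-OE and 1.98 and 1.52 CPM in parental cells (log2 fold change 2.19, SE 0.29, adjusted p = 0.0187). The BMP target ID1 was at 700.1 and 632 CPM in CD44s-OE, against 539.8 and 522 CPM in CD44v6-OE cells and did not pass. DUSP6, ETV1, DUSP4, BMP4 and ATOH8 all lost their call or adjusted p without CD44v6-OE 1 or CD44v6-OE 2, and BMP4, DUSP4 and ETV1 also without either parental library.

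Of 13 tested regulators of G protein signaling, RGS5 was the single one to pass. It was at 13.5 and 20.7 CPM in CD44s-OE, with 4.8 and 4.9 CPM in CD44v6-OE and 1.5 and 1.64 CPM in parental cells, an order of 3 levels without overlap (log2 fold change between OE groups 1.82, SE 0.24, adjusted p = 0.0207). The remaining called higher genes had low levels. GRIK2, a kainate receptor subunit, was at 2.27 and 3.49 CPM in CD44s-OE, against 0.229 and 0.262 CPM in CD44v6-OE cells (log2 fold change 3.54, SE 0.42, adjusted p = 0.015), and GPR183, a chemotactic receptor for oxysterols, at 1.33 and 1.64 CPM in CD44s-OE, against 0.153 and 0.0748 CPM in CD44v6-OE cells (log2 fold change 3.68, SE 0.55, adjusted p = 0.0322). PRSS33, a serine protease, was at 1.83 and 7.77 CPM in CD44s-OE, against 0.381 and 0.393 CPM in CD44v6-OE cells, so its CD44s-OE libraries lay far apart (log2 fold change 3.63, SE 0.66, adjusted p = 0.059).

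MGAT4C, TNFSF18, SLC30A10, LYPLAL1-AS1, TM4SF1 and a gene without symbol, ENSG00000279692, complete the called higher genes. MGAT4C, of the MGAT4 glycosyltransferase family, had 72 and 144 counts in CD44s-OE, 6 and 10 counts in CD44v6-OE and no count in parental cells. TNFSF18, a ligand of the TNF superfamily, had 90 and 148 counts in CD44s-OE, against 20 and 39 counts in CD44v6-OE cells, and ENSG00000279692 had 498 and 378 counts in CD44s-OE, against 131 and 120 counts in CD44v6-OE cells. In these 3 genes the OE groups did not overlap, at log2 fold changes of 3.78, 2.05 and 1.86. TM4SF1, a tetraspanin-like membrane protein, had 20 and 46 counts in CD44s-OE, and 1 and 0 counts in CD44v6-OE cells. LYPLAL1-AS1 had 24 and 89 counts in CD44s-OE and 1 and 2 counts in CD44v6-OE cells, and SLC30A10, a manganese exporter, 36 and 43 counts in CD44s-OE and 2 and 5 counts in CD44v6-OE cells. These last genes are neighbours on chromosome 1, both on the reverse strand and 226057 bases apart. A count of 0 is compatible with up to 6 counts (3 read pairs), counting error alone considered. Calls of RGS5 and of all these low-level genes were lost without CD44v6-OE 1 or CD44v6-OE 2, and that of RGS5 also without CD44s-OE 2. Those of PRSS33, TNFSF18, SLC30A10, LYPLAL1-AS1 and TM4SF1 were lost without either parental library too.

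**Figure D2:**
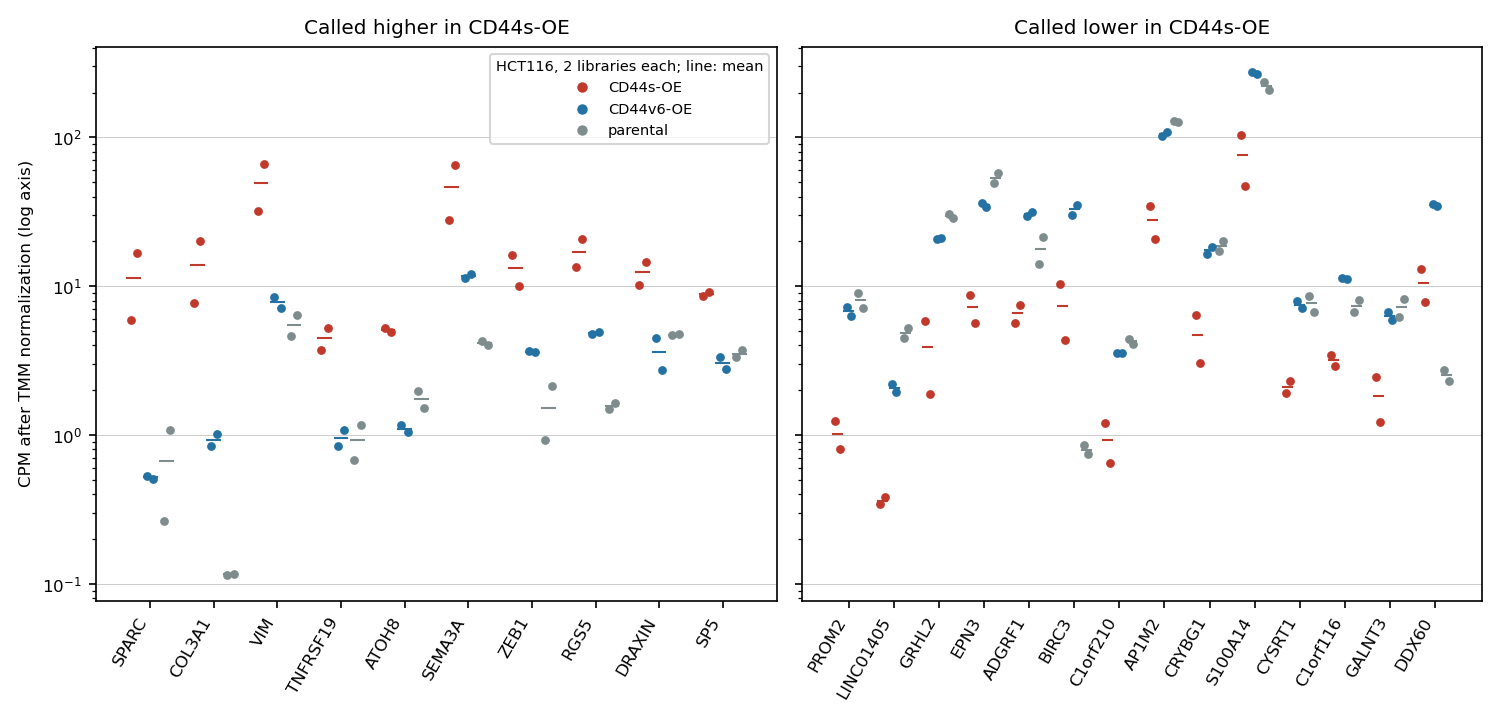
CPM after TMM normalization (log axis) of called genes with a symbol and an average log2 CPM of at least 1, at most 15 per direction and only those reported by name, in HCT116 CD44s-OE (red), CD44v6-OE (blue) and parental (grey) libraries. Each point is 1 library and each short line the mean of 2 libraries. The CD44s-OE points lie above the CD44v6-OE points for the 10 genes on the left and below them for the genes on the right, while the parental points of BIRC3 and DDX60 lie below those of both OE groups.

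Several epithelial sorting and polarity genes were lower in CD44s-OE. Of 28 tested members of this list, 6 passed as lower and 0 as higher (2 higher at an unadjusted p under 0.05 and 2 by DESeq2), with a median log2 fold change of -0.31. AP1M2 (ENSG00000129354, chromosome 19 of hg19 from 10683347 to 10697991), the epithelial subunit of the AP-1 adaptor for basolateral sorting, was at 34.5 and 20.9 CPM in CD44s-OE, with 102 and 108 CPM in CD44v6-OE and 128 and 127 CPM in parental cells. The log2 fold change between OE groups was -1.92 (SE 0.21, adjusted p = 0.0137 from edgeR). EPN3 (chromosome 17 from 48610043 to 48621111), an epsin of endocytosis, was at 8.73 and 5.68 CPM in CD44s-OE, with 36.5 and 33.9 CPM in CD44v6-OE and 49.4 and 57.6 CPM in parental cells (log2 fold change -2.29, SE 0.21, adjusted p = 0.0103).

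PROM2 (chromosome 2 from 95940197 to 95957056), which encodes prominin 2 of plasma membrane protrusions, was at 1.25 and 0.8 CPM in CD44s-OE, with 7.28 and 6.3 CPM in CD44v6-OE and 9.03 and 7.15 CPM in parental cells (log2 fold change -2.73, SE 0.29, adjusted p = 0.0137). In AP1M2, EPN3 and PROM2 the order was the same: CD44s-OE lowest and far below, CD44v6-OE under the parental mean. MAL2, needed for transcytosis to the apical membrane, was at 35.8 and 27 CPM in CD44s-OE, with 92.2 and 105 CPM in CD44v6-OE and 98.9 and 91 CPM in parental cells (log2 fold change -1.65, SE 0.16, adjusted p = 0.012). BICDL2, a dynein adaptor, was at 5.25 and 4.82 CPM in CD44s-OE, against 15.5 and 13.5 CPM in CD44v6-OE cells, and the Crumbs protein gene CRB3 at 17.6 and 14.8 CPM in CD44s-OE, against 28.8 and 27.7 CPM in CD44v6-OE cells (log2 fold change -0.80, adjusted p = 0.0888). SCRIB, a basolateral polarity protein, was at 305 and 326 CPM in CD44s-OE, against 394 and 349 CPM in CD44v6-OE cells, and with LLGL2 it was the best expressed member that did not pass. Calls of AP1M2, EPN3 and PROM2 held with any library left out. That of MAL2 was lost without CD44s-OE 2, where its log2 fold change fell short of the threshold, that of BICDL2 without CD44s-OE 2, CD44v6-OE 1 or CD44v6-OE 2, and CRB3, named here for its promoter after its values were seen, lost its adjusted p without CD44v6-OE 1, CD44v6-OE 2 or either parental library.

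Since ZEB1 and its relatives bind the E-box letters CAGGTG, the promoters of the genes that differed were searched for them, as a description without a test. The letters were searched on both strands (CAGGTG or CACCTG) in the 250 bases before the first listed RefSeq start of each gene, on build GRCh38.p14. At an adjusted p under 0.1, 43 of the 68 lower genes had a promoter in the table, and 17 of these (39.5%) held a match. CDH1, EPN3, MAL2, GRHL2, ESRP1 and ST14 were among the lower genes without a promoter there and were not searched. Of the 73 higher genes, 52 had a promoter and 6 of these (11.5%) held one. For comparison, 16.5% of the promoters of 11729 tested genes and 17.5% of all 27305 promoters held a match. Among called genes the counts were 8 of 16 lower genes (50.0%) and 2 of 17 higher genes (11.8%). A match says only that these letters are in this window, and binding was not measured. CTTTGA or TCAAAG, letters of the TCF motif that do not overlap CAGGTG, were searched in the same promoters as a comparison. They were found in 2 of 17 called higher genes (11.8%), SP5 and PRSS33, of which PRSS33 is not in the Wnt list. The Wnt members TNFRSF19 and APCDD1 held no match. At an adjusted p under 0.1 from edgeR, 5 of 52 higher genes (9.62%) and 2 of 43 lower genes (4.65%) held one. The shares were 7.58% of tested genes and 11.4% of all promoters.

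The lower genes with several matches were CRB3, with 5, AP1M2 and MACC1, with 3 each, and C1orf210 and CRYBG1, with 2 each, if only called genes and CRB3 are taken. Their sequences are shown because they carry the most copies, 5′ to 3′ on the strand of the gene, with the matches in capitals. Their positions on GRCh38.p14 are chr19:6464021-6464270 (+) for CRB3, chr19:10587313-10587562 (-) for AP1M2, chr7:20217385-20217634 (-) for MACC1, chr1:43285582-43285831 (-) for C1orf210 and chr6:106360467-106360716 (+) for CRYBG1.
CRB3: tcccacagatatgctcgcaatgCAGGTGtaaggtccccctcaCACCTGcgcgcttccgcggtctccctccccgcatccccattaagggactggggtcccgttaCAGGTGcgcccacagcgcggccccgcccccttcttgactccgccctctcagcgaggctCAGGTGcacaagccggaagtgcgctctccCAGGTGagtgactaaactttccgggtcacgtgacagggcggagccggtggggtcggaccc
AP1M2: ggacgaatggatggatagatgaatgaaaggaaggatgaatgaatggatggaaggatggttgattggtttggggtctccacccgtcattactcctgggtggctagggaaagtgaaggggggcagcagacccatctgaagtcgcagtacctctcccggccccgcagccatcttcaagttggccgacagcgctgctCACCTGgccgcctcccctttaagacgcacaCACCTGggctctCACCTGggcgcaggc
MACC1: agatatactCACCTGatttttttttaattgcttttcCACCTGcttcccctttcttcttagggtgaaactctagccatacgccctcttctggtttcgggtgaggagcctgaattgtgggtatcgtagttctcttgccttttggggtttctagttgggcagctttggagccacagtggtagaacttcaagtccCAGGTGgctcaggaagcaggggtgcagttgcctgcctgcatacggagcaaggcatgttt
C1orf210: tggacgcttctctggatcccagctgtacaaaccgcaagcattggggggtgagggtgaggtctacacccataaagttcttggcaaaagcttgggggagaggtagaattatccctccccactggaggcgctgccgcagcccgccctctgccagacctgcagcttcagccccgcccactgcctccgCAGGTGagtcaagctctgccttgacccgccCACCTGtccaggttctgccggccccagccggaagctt
CRYBG1: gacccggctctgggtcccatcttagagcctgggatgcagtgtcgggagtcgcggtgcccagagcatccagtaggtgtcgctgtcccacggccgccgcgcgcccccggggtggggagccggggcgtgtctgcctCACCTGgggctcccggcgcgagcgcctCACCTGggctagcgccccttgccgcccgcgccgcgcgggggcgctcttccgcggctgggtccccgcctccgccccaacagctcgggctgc
In AP1M2 the matches lie within 57 bases of the start and in C1orf210 within 67, whereas those of CRB3 and MACC1 extend to 228 and 241 bases. Among the higher genes ZEB1 itself held 1 match, 57 bases before its start, and RGS5 held 1.

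Several junction genes were lower as well. Of 25 tested members, 5 passed as lower and 0 as higher (1 higher at an unadjusted p under 0.05 and 0 by DESeq2), and the median log2 fold change was -0.28. CDH1 (ENSG00000039068, chromosome 16 from 68771195 to 68869444), which encodes E-cadherin, was at 22.2 and 14.6 CPM in CD44s-OE, with 50.4 and 48.7 CPM in CD44v6-OE and 65.4 and 46.8 CPM in parental cells (log2 fold change -1.43, SE 0.22, adjusted p = 0.0384). MARVELD3, CGN and CLDN7, proteins of tight junctions, had log2 fold changes of -1.12, -1.02 and -0.92, with adjusted p of 0.045, 0.0514 and 0.0805. CLDN7 was at 88.8 and 59.5 CPM in CD44s-OE, against 136 and 144 CPM in CD44v6-OE cells. The best expressed members did not pass: LSR was at 525 and 425 CPM in CD44s-OE, against 547 and 482 CPM in CD44v6-OE cells, and CTNNA1, alpha-catenin, at 394 and 313 CPM in CD44s-OE, against 358 and 361 CPM in CD44v6-OE cells. EPCAM, an epithelial adhesion molecule, did not pass either, at 80.3 and 121 CPM in CD44s-OE, against 179 and 177 CPM in CD44v6-OE cells (log2 fold change -0.82, SE 0.18, adjusted p = 0.117). Its parental level was 212 and 233 CPM.

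Of 10 desmosome genes, PKP3, a plakophilin, passed as lower, at 142 and 119 CPM in CD44s-OE, against 220.1 and 194 CPM in CD44v6-OE cells (log2 fold change -0.67, adjusted p = 0.0934). JUP, plakoglobin, and DSP, desmoplakin, had log2 fold changes of -0.32 and -0.24 and did not pass. Of 17 keratins none passed with edgeR (1 higher and 3 lower at an unadjusted p under 0.05, 1 and 1 by DESeq2), and KRT8 was at 3548 and 3977 CPM in CD44s-OE, against 4313 and 3873 CPM in CD44v6-OE cells. CDH1, MARVELD3, CGN, CLDN7 and PKP3 lost their adjusted p without CD44v6-OE 1 or CD44v6-OE 2, and CGN, MARVELD3, CLDN7 and PKP3 also without either parental library.

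Regulators and surface enzymes of epithelia followed. GRHL2 (chromosome 8 from 102504667 to 102681954), a Grainyhead-like factor that maintains epithelial identity, was at 5.88 and 1.89 CPM in CD44s-OE, with 20.9 and 21 CPM in CD44v6-OE and 30.4 and 28.6 CPM in parental cells (log2 fold change -2.43, SE 0.42, adjusted p = 0.0679). It was the single member of 21 epithelial transcription factors to pass, 18 of which had a negative log2 fold change. ELF3, an epithelial ETS factor, was at 77.2 and 42.9 CPM in CD44s-OE, against 102 and 105 CPM in CD44v6-OE cells and did not pass. ESRP1, the splicing factor that promotes variant exons of CD44, was at 47.5 and 41.7 CPM in CD44s-OE, with 91 and 94.5 CPM in CD44v6-OE and 122 and 106 CPM in parental cells (log2 fold change -1.06, SE 0.14, adjusted p = 0.0187). Of 26 splicing regulators it alone passed, and PTBP1, at 838 and 678 CPM in CD44s-OE, against 1006 and 907 CPM in CD44v6-OE cells, did not.

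ST14, which encodes matriptase, was at 166 and 96.6 CPM in CD44s-OE, against 301 and 266 CPM in CD44v6-OE cells (log2 fold change -1.11, adjusted p = 0.0805). All 11 tested genes of the matriptase and epithelial protease list had negative log2 fold changes, with a median of -0.54. SPINT1 and SPINT2, inhibitors of matriptase, had log2 fold changes of -0.21 and -0.20 and did not pass. S100A14, a calcium-binding protein of epithelia and the best expressed called gene, was at 105 and 47.1 CPM in CD44s-OE, with 274 and 266 CPM in CD44v6-OE and 234 and 208 CPM in parental cells (log2 fold change -1.83, SE 0.32, adjusted p = 0.0746). GALNT3, which starts O-glycan chains, was at 2.45 and 1.22 CPM in CD44s-OE, against 6.75 and 5.91 CPM in CD44v6-OE cells (log2 fold change -1.79, SE 0.33, adjusted p = 0.0653). Without CD44v6-OE 1, CD44v6-OE 2 or either parental library, the calls of GRHL2, S100A14 and GALNT3 were lost, and those of S100A14 and GALNT3 also without CD44s-OE 2. ESRP1 and ST14 lost their adjusted p without CD44v6-OE 1 or CD44v6-OE 2, and ST14 also without either parental library.

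Further lower genes had known links to epithelia or none that is certain. ADGRF1, an adhesion G protein-coupled receptor, was at 5.63 and 7.5 CPM in CD44s-OE, with 29.5 and 31.5 CPM in CD44v6-OE and 14 and 21.5 CPM in parental cells (log2 fold change -2.21, SE 0.24, adjusted p = 0.0137). UCA1, a long noncoding RNA given here for its adjusted p of 0.00434, the lowest of the called genes, was at 62.8 and 60.5 CPM in CD44s-OE, with 205 and 202 CPM in CD44v6-OE and 145 and 174 CPM in parental cells (log2 fold change -1.72, SE 0.14). In both genes the 3 groups did not overlap and CD44v6-OE was the highest. LINC01405 was at 0.342 and 0.381 CPM in CD44s-OE, with 2.19 and 1.95 CPM in CD44v6-OE and 4.51 and 5.24 CPM in parental cells, the highest group (log2 fold change between OE groups -2.51, SE 0.32, adjusted p = 0.0176). C1orf116, CYSRT1, C1orf210 and CRYBG1 had log2 fold changes of -1.82 to -1.94, and CD44s-OE levels of 0.648 to 6.40 CPM against 3.54 to 18.2 CPM in CD44v6-OE cells.

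NRG1, a ligand of ERBB receptors and the single one of 13 genes of that list to pass, was at 0.262 and 0.343 CPM in CD44s-OE, against 1.09 and 1.96 CPM in CD44v6-OE cells (log2 fold change -2.32, SE 0.46, adjusted p = 0.083). VANGL2, a planar polarity protein, was at 0.463 and 0.324 CPM in CD44s-OE, with 2.12 and 2.47 CPM in CD44v6-OE and 0.912 and 0.938 CPM in parental cells (log2 fold change -2.54, SE 0.37, adjusted p = 0.0288). Of the remaining called lower genes, LINC02967 had a log2 fold change of -3.57, RBBP8NL of -3.21, LINC00514 of -2.64, DNAH2, an axonemal dynein chain, of -1.85, and MACC1 of -1.51. CD44-AS1 is given with the CD44 locus. Among the genes from ADGRF1 to MACC1, the calls of ADGRF1 and UCA1 held with any library left out, and all other calls were lost without CD44v6-OE 1 or CD44v6-OE 2. The call of MACC1 was also lost without CD44s-OE 1, that of CRYBG1 without CD44s-OE 2, and those of CRYBG1, C1orf210, RBBP8NL, LINC00514, NRG1 and DNAH2 without either parental library.

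**Figure D3:**
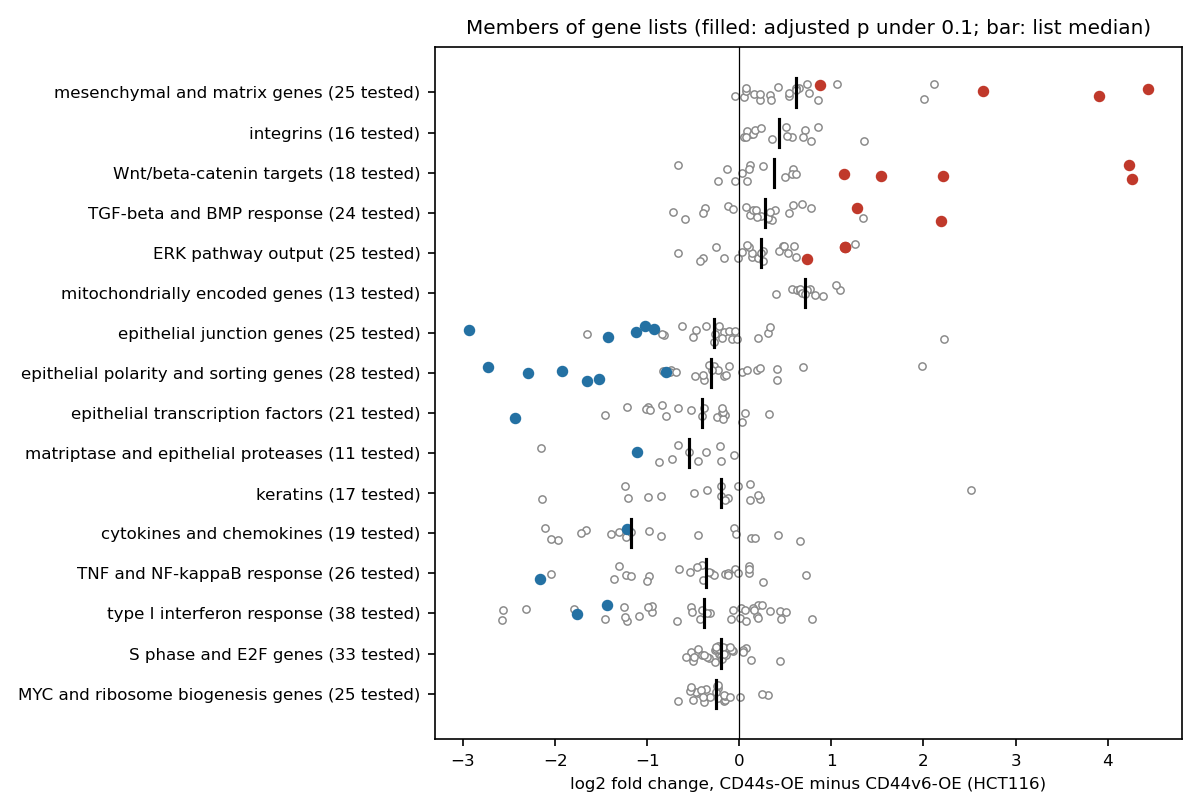
Log2 fold change, CD44s-OE minus CD44v6-OE, of the tested members of 16 gene lists in HCT116 cells, 1 point per gene, with a black bar at each list's median. Filled points passed an adjusted p under 0.1 (red higher, blue lower in CD44s-OE) and open points did not. The medians run from 0.71 for mitochondrially encoded genes, of which none passed, to -1.18 for cytokines and chemokines, of which 1 passed.

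The immune response genes BIRC3, DDX60 and SAMD9 also passed as lower with CD44s, but were lowest in parental cells. BIRC3 (ENSG00000023445, chromosome 11 from 102188181 to 102210134), an inhibitor of apoptosis induced by NF-kB, was at 10.3 and 4.36 CPM in CD44s-OE, with 30.2 and 35.4 CPM in CD44v6-OE and 0.855 and 0.743 CPM in parental cells (log2 fold change between OE groups -2.16, SE 0.34, adjusted p = 0.0364). DDX60 (chromosome 4 from 169137445 to 169239955), an interferon-induced helicase, was at 13 and 7.87 CPM in CD44s-OE, with 35.9 and 34.7 CPM in CD44v6-OE and 2.74 and 2.31 CPM in parental cells (log2 fold change -1.76, SE 0.24, adjusted p = 0.0221). SAMD9, an interferon-induced restriction factor, was at 23.5 and 15.5 CPM in CD44s-OE, with 52 and 53.2 CPM in CD44v6-OE and 3.42 and 3.63 CPM in parental cells (log2 fold change -1.43, SE 0.20, adjusted p = 0.0245). In each of these genes CD44s-OE lay between parental and CD44v6-OE cells without overlap.

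MXD1, a partner of MAX, was at 7.83 and 3.66 CPM in CD44s-OE, with 18.8 and 19.6 CPM in CD44v6-OE and 3.5 and 2.07 CPM in parental cells (log2 fold change between OE groups -1.74, SE 0.35, adjusted p = 0.0888). IL32, a cytokine, was the single member of 19 cytokines and chemokines to pass, at 3.84 and 5.22 CPM in CD44s-OE, with 10.6 and 10.4 CPM in CD44v6-OE and 4.54 and 6.31 CPM in parental cells (log2 fold change -1.22, SE 0.25, adjusted p = 0.0888). Of these cytokines 15 had negative log2 fold changes, with a median of -1.18. CSF2, which encodes GM-CSF, had 3 and 4 counts in CD44s-OE, 18 and 14 counts in CD44v6-OE and 2 and 4 counts in parental cells and did not pass (adjusted p = 0.367). LIF and IL18, the best expressed cytokines, had log2 fold changes of 0.17 and -0.03. The NF-kB list as a whole held 1 member that passed as lower, BIRC3, of 26 tested, with a median of -0.36. Without CD44v6-OE 1 or CD44v6-OE 2 the calls of BIRC3, DDX60 and MXD1 and the adjusted p of SAMD9 and IL32 were lost. The calls of BIRC3 and MXD1 and the adjusted p of IL32 were lost without either parental library, and those of DDX60 and MXD1 without CD44s-OE 2.

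The CD44s-OE libraries disagreed with each other on interferon genes. ISG15, a ubiquitin-like protein induced by interferon, was at 1590 and 501 CPM in CD44s-OE, with 911 and 845 CPM in CD44v6-OE and 88.1 and 109.7 CPM in parental cells. IFITM3, an interferon-induced transmembrane protein, was at 1710 and 549 CPM in CD44s-OE, against 812 and 775 CPM in CD44v6-OE cells. In both, CD44s-OE 1 lay above both CD44v6-OE libraries and CD44s-OE 2 below them, and neither passed the test. Without CD44s-OE 1, their log2 fold changes turned to -0.81 and -0.53 and passed as lower. This arrangement was found in 21 of 38 type I interferon genes (55.3%), in 19 of 28 MHC class I and interferon gamma genes (67.9%) and in 16 of 23 ATF4 and amino acid stress genes (69.6%), against 14.2% of all tested genes. The opposite arrangement was found in 0 genes of these 3 lists and in 14% of all tested genes. The median log2 ratio of CD44s-OE 1 to CD44s-OE 2 was 2.13, 1.11 and 0.76 in these lists.

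With all libraries, 2 type I interferon genes passed as lower, DDX60 and SAMD9, and 0 as higher (0 at an unadjusted p under 0.05 and 0 by DESeq2). The list median was -0.38. None of the MHC class I and interferon gamma genes passed with edgeR (1 higher and 2 lower at an unadjusted p under 0.05, 0 by DESeq2). None of the ATF4 genes passed (1 higher at an unadjusted p under 0.05 and 1 by DESeq2), and SLC7A5, an amino acid transporter, was at 1010 and 514 CPM in CD44s-OE, against 1040 and 970.3 CPM in CD44v6-OE cells. Among called genes, selection favours CD44s-OE libraries on 1 side of CD44v6-OE. CD44s-OE 2 was the farther from CD44v6-OE in 19 of 22 higher genes. On the lower side the count was 20 of 28, with CD44-AS1 counted in although both CD44s-OE libraries were tied at 0 counts. The share over all tested genes was not computed. The cause of the difference between the CD44s-OE libraries was not tested.

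**Figure D4:**
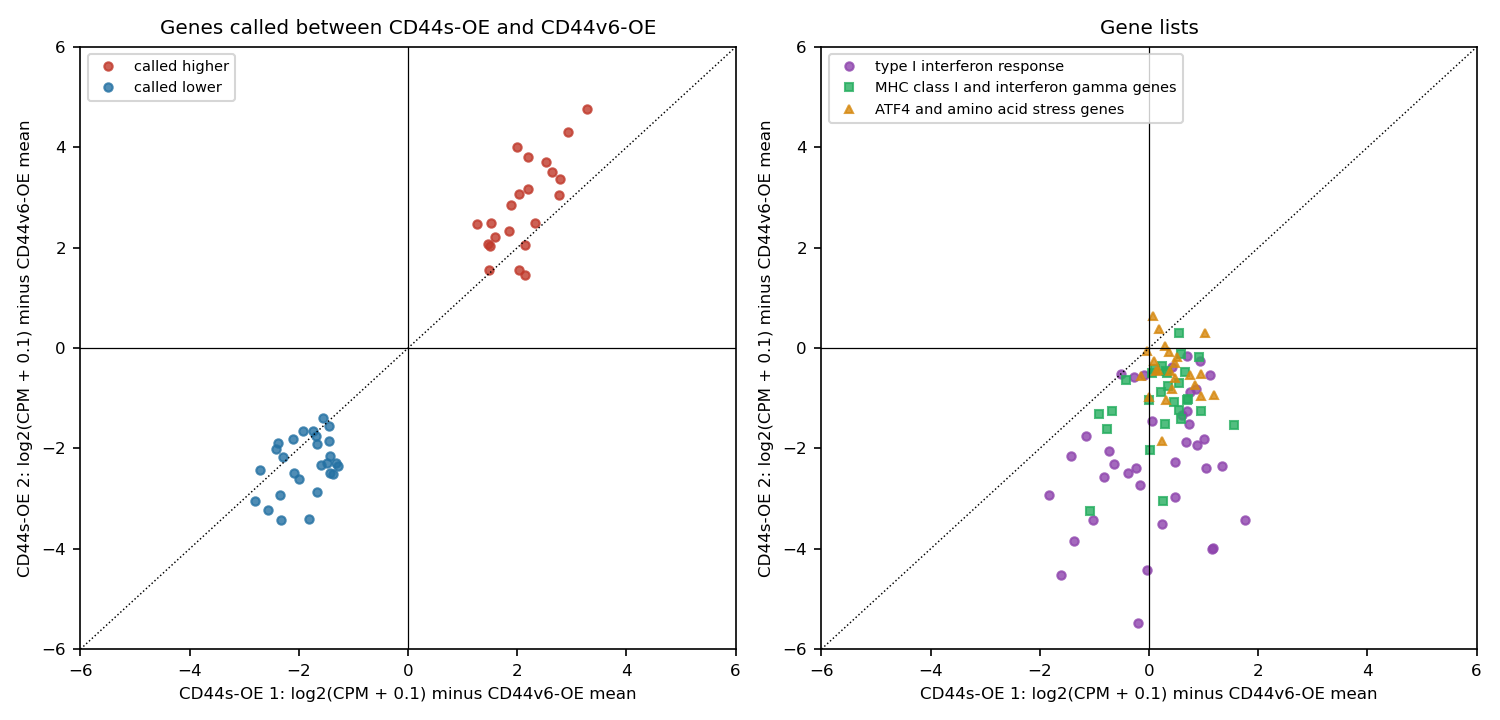
For each gene, log2(CPM + 0.1) in CD44s-OE 1 (horizontal) and CD44s-OE 2 (vertical), each minus the mean of the CD44v6-OE libraries, with a dotted line where the replicates are equal. On the left, genes called higher (red) and lower (blue, without CD44-AS1), whose selection favours this, keep the same sign in both libraries, and 19 of 22 higher genes lie above the line. On the right, most type I interferon genes (purple), MHC class I and interferon gamma genes (green) and ATF4 genes (orange) lie in the lower right part, where CD44s-OE 1 is above CD44v6-OE and CD44s-OE 2 below.

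Mitochondrially encoded transcripts had positive log2 fold changes in CD44s-OE that did not pass the test. Of 13 genes, all had positive log2 fold changes, from 0.39 to 1.10 with a median of 0.71. In 11 both CD44s-OE libraries lay above both CD44v6-OE libraries, as in 20.4% of all tested genes. None passed with edgeR, while 11 had an unadjusted p under 0.05, as 5.66% of all tested genes did on the higher side, and 8 passed with DESeq2, as 287 of 17335 did. MT-CO2, a subunit of cytochrome oxidase, was at 25205 and 18197 CPM in CD44s-OE, with 14541 and 13032 CPM in CD44v6-OE and 12688 and 8640 CPM in parental cells (adjusted p = 0.271). Summed over the 13 genes, CPM scaled to the total count were 103915 and 82733 in CD44s-OE, 59026 and 58510 in CD44v6-OE and 58938 and 34928 in parental cells. The parental libraries lay far apart too. Nuclear-encoded genes of oxidative phosphorylation had a median of -0.08 over 40 genes, of which none passed (2 lower at an unadjusted p under 0.05, 0 by DESeq2).

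Integrins, receptors for the matrix, had positive log2 fold changes in 16 of 16 tested genes, with a median of 0.43. In 9 both CD44s-OE libraries lay above both CD44v6-OE libraries, as in 20.4% of all tested genes. None passed with edgeR (4 at an unadjusted p under 0.05, 2 by DESeq2), and ITGB4 was at 1091 and 1004 CPM in CD44s-OE, with 751 and 662 CPM in CD44v6-OE and 478 and 474 CPM in parental cells (adjusted p = 0.106). Genes of S phase and of ribosome biogenesis had medians of -0.20 over 33 genes and -0.25 over 25 genes, and none passed (9 and 11 lower at an unadjusted p under 0.05, against 4.86% of all tested genes, and 3 and 3 by DESeq2, against 206 of 17335). Of the glycolysis list, HK2, a hexokinase, passed as lower, at 26.7 and 21 CPM in CD44s-OE, against 41.8 and 40.7 CPM in CD44v6-OE cells (adjusted p = 0.0957), a pass that was lost without CD44v6-OE 1, CD44v6-OE 2 or either parental library. Hyaluronan and CD44 partner genes had a median of 0.00, and none of 21 passed (1 higher and 3 lower at an unadjusted p under 0.05, 0 and 3 by DESeq2). Notch targets, YAP and TAZ targets, p53 targets, intestinal differentiation genes, cholesterol genes and G2M genes likewise held no member that passed, with medians between -0.10 and 0.15, 1 to 5 members of each at an unadjusted p under 0.05 and 0 to 4 by DESeq2.

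At the CD44 locus, the antisense gene did separate the OE groups. CD44-AS1 (ENSG00000255443, chromosome 11 from 35231890 to 35236532 on the opposite strand) had 0 counts in both CD44s-OE and both parental libraries, and 97 and 119 counts in CD44v6-OE cells. Set against the floor of 6 counts per library it was at least 15.9-fold lower with CD44s, and its call was lost without CD44v6-OE 2. Of its 587 exon bases, 84 are shared with exons of CD44. The source of these reads was not tested.

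For most called genes the parental level lay nearer to CD44v6-OE. The comparisons with parental cells share the parental libraries, and each OE group also enters the comparison between OE groups. Against parental cells, CD44s-OE had 469 genes called higher (2.71%) and 67 lower (0.387%), and CD44v6-OE had 128 higher (0.738%) and 7 lower (0.0404%). Of the 22 higher genes, 21 had a parental level nearer to CD44v6-OE, and 18 were also called higher against parental cells. Of the 28 lower genes, 22 had a parental level nearer to CD44v6-OE and 17 were called lower against parental cells. The exceptions nearer to CD44s-OE were CD44-AS1, LINC00514, VANGL2, BIRC3, DDX60 and MXD1 on the lower side and APCDD1 on the higher side. For BIRC3 the log2 fold change against parental was 3.19 in CD44s-OE and 5.35 in CD44v6-OE cells, for EPN3 it was -2.89 and -0.60, and for VIM it was 3.16 and 0.51. The parental libraries set the order here and entered the spread behind the calls, so these counts are a description. The share of all tested genes with a parental level nearer to CD44v6-OE was not computed. CD44s-OE had the more calls against parental cells over all tested genes.

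SW480 libraries served as a further setting for the same genes. There, the same comparison gave 51 genes called higher (0.291%) and 128 called lower (0.73%). Of the 28 lower genes of HCT116, 24 were tested in SW480, 23 had a negative log2 fold change and 6 were called lower, CD44-AS1 of the transfected locus among them. Of the 22 higher genes, 17 were tested, 14 had a positive log2 fold change and 0 were called with edgeR, with 3 at an unadjusted p under 0.05 and 0 called by DESeq2. AP1M2 had a log2 fold change of -1.17 in SW480 (adjusted p = 0.0399) and ZEB1 of 1.42 (adjusted p = 0.0286), both under the fold threshold.

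The difference between the lines passed an adjusted p under 0.1 for 96 of 19567 genes (0.491%), and for 8 of the 22 higher and 3 of the 28 lower genes. The called genes were selected for a large fold in HCT116, and this test uses the same HCT116 libraries. That selection favours a difference among them, so these counts are a description. TNFRSF19 had a log2 fold change of 2.21 in HCT116 and -0.27 in SW480 (adjusted p of the difference 0.0187), and VIM of 2.65 and 0.40 (adjusted p 0.0695). Parental levels of these genes differed between the lines. TNFRSF19 was at 19.5 and 25.2 CPM in SW480 parental cells, against 0.684 and 1.17 CPM in HCT116 parental cells. VIM was at 1091 and 733 CPM in SW480 parental cells, against 4.6 and 6.39 CPM in HCT116 parental cells. ESRP1 had -1.06 in HCT116 and -2.92 in SW480 (adjusted p 0.0187). For GRHL2, EPN3 and AP1M2 the difference between the lines did not pass (adjusted p of 0.762, 0.945 and 0.53), which does not show that the lines act alike. In SW480 libraries GRHL2 was at 0.384 CPM at most and EPN3 at 0.769 CPM at most, too low to compare the lines on these genes. PROM2 was below the filter in SW480. Without HCT116 CD44v6-OE 1 or CD44v6-OE 2 the number of genes that differed between the lines was 8 or 6, and without SW480 CD44s-OE 2 it was 13.

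**Figure D5:**
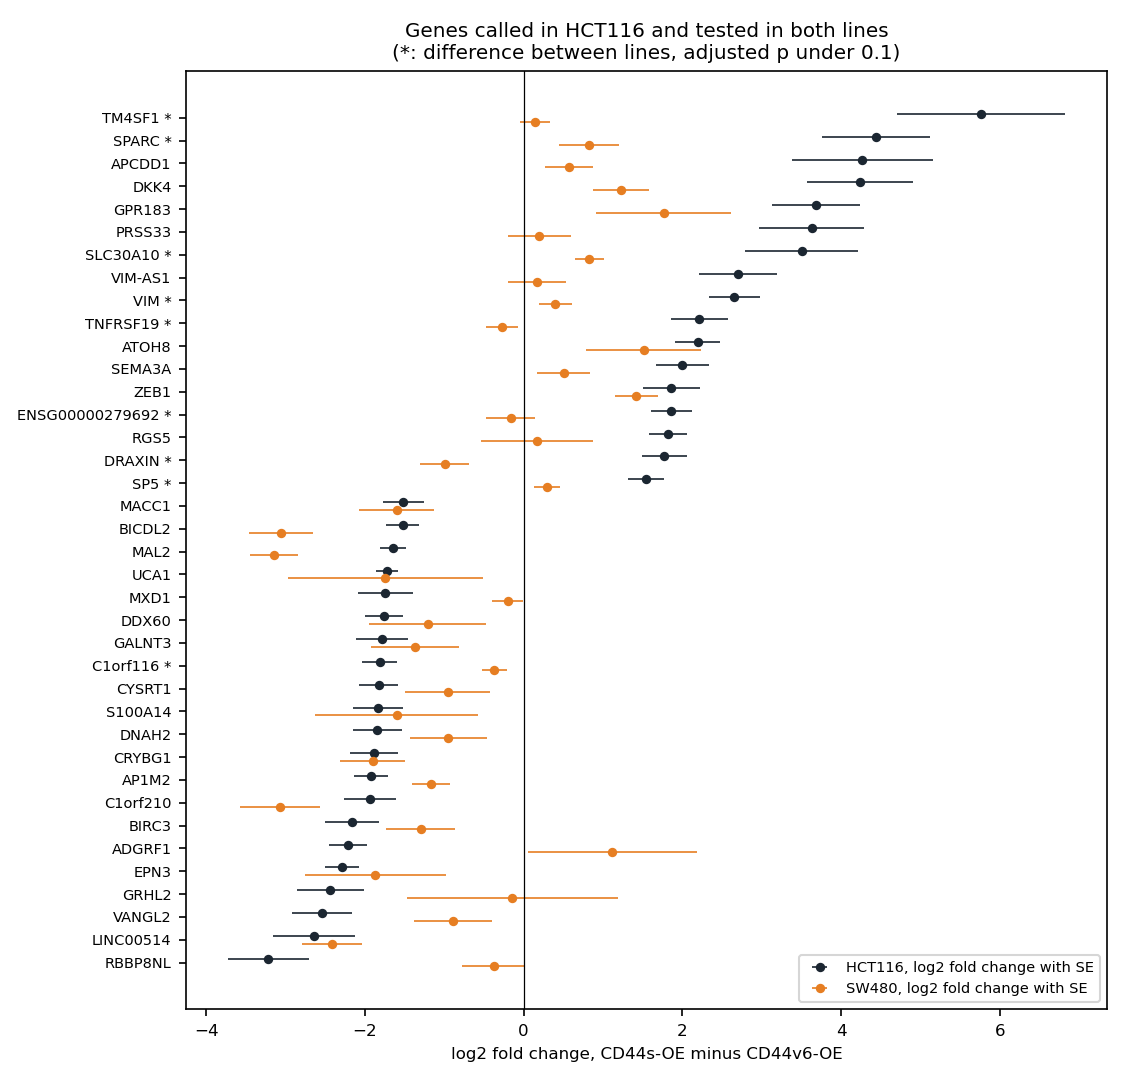
Log2 fold change, CD44s-OE minus CD44v6-OE, with its SE, in HCT116 (black) and SW480 (orange), for genes called in HCT116 and tested in both lines, some genes left out, CD44-AS1 among them. An asterisk marks an adjusted p under 0.1 for the difference between lines. SP5, RGS5, VIM and TNFRSF19 lie near 0 in SW480 and DRAXIN below it, while among the lower genes C1orf210, MAL2 and BICDL2 lie farther from 0 in SW480 than in HCT116. RGS5 was at 0.432 CPM at most in SW480 libraries, and its difference between lines did not pass (adjusted p = 0.417 from edgeR).

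The labelled cell type was checked against its markers and those of other cell types. The epithelial keratins KRT8 and KRT19 were at 3548 to 4313 CPM and 1313 to 1603 CPM in the OE groups, while the colon markers LGALS4 and CDH17 were below the filter. Scaled to the total count, leukocyte markers summed to 0.698 and 1.04 CPM in CD44s-OE, with 0.577 and 0.636 CPM in CD44v6-OE and at most 0.437 CPM in parental cells, with PTPRC, CD3D and CD3E below the filter. Neuron markers summed to 61.4 and 69.8 CPM in CD44s-OE, with 55.5 and 57.8 CPM in CD44v6-OE and 51.6 and 55.8 CPM in parental cells. Endothelial markers summed to 11.9 and 13.7 CPM in CD44s-OE, with 14.9 and 14.1 CPM in CD44v6-OE and 12.4 and 13.2 CPM in parental cells. None of the 6 neuron, 3 endothelial and 3 leukocyte markers tested passed with edgeR.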

How the data were processed

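Polyadenylated RNA of CD44s-OE, CD44v6-OE and parental cells of both lines, 2 libraries each, was sequenced paired-end on DNBSEQ. Per the study's methods, reads were filtered with SOAPnuke, aligned with STAR (2.7.9a in the submitters' processing notes) to hg19 and counted per gencode gene by strand with featureCounts (Subread 2.0.3). The deposited counts are raw counts per gene from the authors, in which each read of a pair appears to be counted, since counts of 4 and 6 are more frequent than 3 and 5. The deposited log2 values are the authors' variance-stabilized counts from DESeq2 (1.30.1) and were used only as an alternative.

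The raw counts of the 6 HCT116 libraries (51075563 to 52811889 in total) were filtered with filterByExpr, scaled by TMM and fitted with edgeR 4.0.16 (R 4.3.3, limma 3.58.1), using the robust quasi-likelihood test with Benjamini-Hochberg adjustment over all tested genes. SW480 was fitted alone and the difference between lines in a fit of all 12 libraries. CPM are TMM-scaled unless stated. The script was tested on simulated data.

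The comparison, the gene lists and the alternatives were chosen with earlier results of these data known. A few genes that met the rules are counted but not reported by name here. Values per library are given for up to 15 called genes per direction with an average log2 CPM of at least 1, for genes the study names, and for each list's up to 4 passing members per direction and its best expressed members that did not pass. CRB3, CLDN7, LAMB1, TIMP1, KRT19, COL1A1, PDGFRB, MT-CO2, UCA1 and the less expressed called genes were chosen after their values were seen. Symbols came from the deposited tables and the reference annotation, and 17744 of 62426 gene IDs had none. Promoters are RefSeq sequences on GRCh38.p14. Replicate numbers of the groups do not mark a pairing in the labels. No replicate pair appeared to be 1 library deposited more than once. Alternatives were RLE size factors, other count filters, a nonrobust fit, a replicate block, DESeq2 1.42.0, halved counts, only the 4 libraries, limma on the log2 values, other thresholds and leaving out each library.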

Additional observations from a re-analysis of the deposited data

Results flagged for a closer look

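The log2 fold change between CD44s-OE and CD44v6-OE cells differed between SW480 and HCT116 for 17 genes named in the text, by edgeR's test of the difference itself (SW480 minus HCT116) at an adjusted p of 0.0129 to 0.0954. Each line had 2 libraries per group. Genes called or passing in HCT116 were selected by the same HCT116 libraries that enter this test, which favours a difference among them. Among genes called higher in HCT116 the difference was -3.62 for SPARC, -2.26 for VIM, -2.50 for TNFRSF19, -1.25 for SP5, -2.78 for DRAXIN, -2.68 for SLC30A10, -5.62 for TM4SF1 and -2.03 for ENSG00000279692. The TM4SF1 difference rests on 1 and 0 counts in HCT116 CD44v6-OE cells, and its size depends on how the fit treats such counts. Parental levels differed between the lines for some of these genes. TM4SF1 was at 36.2 and 26.8 CPM in SW480 parental cells, against 0.019 and 0.0391 CPM in HCT116. SP5 was at 250 and 288 CPM in SW480 parental cells, against 3.33 and 3.71 CPM in HCT116. For SPARC the levels were 0.407 and 0.485 CPM in SW480 parental cells, and 0.266 and 1.07 CPM in HCT116. NOTUM and DUSP6, which passed below the fold threshold, differed by -1.36 and -1.14.

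Epithelial genes differed in both directions. The log2 fold change was -0.92 in HCT116 and -2.92 in SW480 for CLDN7, -0.80 in HCT116 and -2.52 in SW480 for CRB3, -1.06 in HCT116 and -2.92 in SW480 for ESRP1 and -0.21 in HCT116 and -1.45 in SW480 for SPINT1, with differences of -2.01, -1.73, -1.87 and -1.24. SPINT1 did not pass in HCT116. For C1orf116 (1.44) the change was farther from 0 in HCT116. SAMD9, an interferon-induced gene, had -1.43 in HCT116 and 1.19 in SW480 (difference 2.61), and DPP4, a peptidase of the brush border, had -0.81 in HCT116 and 1.27 in SW480 (difference 2.07). SAMD9 passed in HCT116 and not in SW480, and DPP4 passed in neither line.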

How the results depend on the processing

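The 50 called genes kept their direction under every alternative that gave them a value, and all 50 stayed called with RLE size factors and without a count filter. The number of called genes between OE groups was 132 without a filter, 81 with DESeq2, 29 with only the 4 libraries, 24 with limma on the deposited log2 values and 141 with no minimum fold. Against parental cells, CD44s-OE gave 536 calls, 314 at a mean count of at least 50, 345 at an adjusted p under 0.05 and 2455 with no minimum fold. CD44v6-OE gave 135, with 283 without a filter, 208 with DESeq2, 83 at an adjusted p under 0.05 and 266 with no minimum fold. SW480 gave 179, with 293 without a filter and 371 with no minimum fold. The line difference gave 96, with 435 without a filter, 343 with DESeq2 and 37 at an adjusted p under 0.05. The cause was not tested.

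With 1 library left out, counts ranged from 7 to 326 between OE groups, 136 to 805 and 7 to 369 for CD44s-OE and CD44v6-OE against parental cells, 38 to 321 in SW480 and 6 to 249 for the line difference. The lone library left in a group is assumed to vary like the others. The log2 fold changes ranged from -0.70 to 0.54 for HLA-C, -0.53 to 1.10 for IFITM3 and -0.81 to 0.85 for ISG15, negative without CD44s-OE 1.

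Same-numbered replicates correlated at 0.18, 0.07 and 0.05 in their deviations, so the numbers were not taken as pairs. A replicate block gave 69 calls between OE groups, 539 and 169 for CD44s-OE and CD44v6-OE against parental cells, 188 in SW480 and 131 for the line difference. The medians of 38 lists were taken again under several alternatives each. Of these 304 values, 257 moved by less than the spread between replicates. With counts halved and rounded up, 52 genes were called between OE groups, against 50 in the main fit. Whether spread or depth limits the comparison was not tested.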
